A study of Mus musculus with 8 samples.

Results

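Interferon receptors, their transcription factors and interferon-response genes were examined in ribosome-bound RNA of mouse lung endothelium. The set held 35 genes, picked by symbol for their known roles in the pathway, with earlier results of these data known, out of 23238 distinct symbols in the count tables. The larger groups are receptors, transcription factors, antiviral effectors and interferon-inducible GTPases, and the smaller groups hold the cytosolic RNA sensors, the ISG15 system and the interferon-induced transmembrane genes. All 35 had a row in every library.

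The 8 libraries came from C57BL/6J mice, 4 from control mice kept in room air (Cdh5-CreERT2; RPL22tm1.1Psam) and 4 from mice with an induced Sox17 deletion kept in hypoxia (Cdh5-CreERT2; Sox17fl/fl; RPL22tm1.1Psam). Both groups thus carried the tamoxifen-inducible recombinase driven by Cdh5, an endothelial promoter, and the RiboTag allele, which tags the ribosomal protein RPL22 with haemagglutinin in cells where the recombinase is active. At 8 weeks of age all were given tamoxifen, 2 mg daily for 5 days, and from 10 weeks they spent 3 weeks in room air or hypoxia. Genotype and oxygen changed together, so their effects cannot be told apart. Libraries are called control 1 to 4 and hypoxic Sox17-deleted 1 to 4 after their titles. The count columns of hypoxic Sox17-deleted libraries 2, 3 and 4 share a name stem, and the sources used here do not say whether these libraries share an animal. P-values therefore cover the spread among libraries, part of which may be technical.

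Levels are given as CPM, counts scaled to a common library total, from a kit that reads the 3′ end of each transcript, so they were not divided by transcript length and genes are compared on this tag scale. Totals ranged from 7000313 counts (hypoxic Sox17-deleted library 3) to 12913304, and 3 counts, the largest number not set apart from 0, equal 0.232 to 0.429 CPM. Between 9821 and 10429 genes had a count in the control libraries and between 8019 and 8708 in the hypoxic Sox17-deleted ones. Sox17 itself was at 205 to 291 CPM in the controls and at 36.6, 3.28, 0.857 and 3.67 CPM in hypoxic Sox17-deleted libraries 1 to 4. The pan-endothelial markers, all 12 of them detected, summed to 13176 ± 539 and 12363 ± 2427 CPM (SD, n = 4). Hypoxic Sox17-deleted library 4 was the lowest at 8749 CPM, and all other libraries lay between 12441 and 13837 CPM. Of the 12 markers, 4 were higher and 8 lower in mean in the hypoxic Sox17-deleted group. Leukocytes also use interferon genes. Macrophage, monocyte and neutrophil markers (17 of 18 detected) summed to 286 to 341 CPM in controls and 329 to 771 CPM in hypoxic Sox17-deleted libraries. Of these markers, 11 were higher in mean and 6 lower. Lymphocyte markers summed to at most 72.4 CPM in any library, with 4 of 12 at 0 in all 8. The 6 plasmacytoid dendritic cell markers summed to 1068 to 1352 CPM in controls and 690.0 to 799.5 CPM in hypoxic Sox17-deleted libraries, nearly all of it from Tcf4 (means of 975 and 517 CPM) and from Bst2, itself one of the 35 genes, while Siglech and Klk1 were at 0 counts in all 8. Alveolar type 2 markers summed to 934 to 1287 and 1990 to 4199 CPM, and club and ciliated markers to 2548 to 3428 and 5209 to 8512 CPM, with all 6 of the latter higher in mean. Fibroblast markers summed to 595 to 750.4 and 793 to 9156 CPM, but Gsn alone had 91602 counts in hypoxic Sox17-deleted library 4 and 2570 to 13072 in the others, and Col1a1 (means of 36.5 and 8.07 CPM) and Dcn (63.0 and 43.9 CPM) were lower in mean. The groups did not overlap for the plasmacytoid, alveolar, club and ciliated, and fibroblast sums (exact permutation p = 0.0286 each, two-sided, the smallest that 4 against 4 allows, and 0.0514 after adjustment over 9 measures). The part of other cells in the levels below was not tested. In such bulk material fewer cells of a type and less RNA per cell cannot be told apart.

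Interferons are secreted cytokines that warn cells of viral infection. Type I interferons bind the receptor chains IFNAR1 and IFNAR2, and the kinases JAK1 and TYK2 then activate a transcription factor complex that holds STAT2 and IRF9 and binds the interferon-stimulated response element (ISRE) of target genes. Interferon gamma binds IFNGR1 and IFNGR2, signals through JAK1 and JAK2, and acts on genes that carry the gamma-activated sequence (GAS). Endothelial cells carry both receptors, and many of the target genes have a basal level without infection.

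RefSeq promoter sequences (GRCm38.p6, 250 bases before to 50 after a start) were at hand for 30 of the 35 genes, as 37 promoters. The ISRE core was searched as GAAA, any 2 bases, GAAA on both strands and found in 16 of these 37 promoters (43.2%), against 3.44% of 32851 promoters of the same length. The GAS letters TTCNNNGAA, which read alike on both strands, were found in 12 of 37 (32.4%), against 8.3% of all. The genes were chosen for known roles in the pathway, many of them as interferon targets, so the difference describes the choice. The promoters of the most abundant member (Ifitm3), the member with the lowest p (Igtp) and a classical low-level target (Isg15) are shown with ISRE cores in capitals, and overlapping cores run together. The first listed promoter of Irf1, the second most abundant member, held no ISRE core and is shown with its GAS match, 90 bases before the start, in capitals.
Ifitm3, chr7:141010695-141010994, minus strand: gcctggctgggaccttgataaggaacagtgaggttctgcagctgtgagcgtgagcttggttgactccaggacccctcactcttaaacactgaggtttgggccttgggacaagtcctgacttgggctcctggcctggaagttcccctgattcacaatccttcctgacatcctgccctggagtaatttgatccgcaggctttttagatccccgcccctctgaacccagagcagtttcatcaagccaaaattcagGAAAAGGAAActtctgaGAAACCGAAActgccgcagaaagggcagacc
Igtp, chr11:58199306-58199605, plus strand: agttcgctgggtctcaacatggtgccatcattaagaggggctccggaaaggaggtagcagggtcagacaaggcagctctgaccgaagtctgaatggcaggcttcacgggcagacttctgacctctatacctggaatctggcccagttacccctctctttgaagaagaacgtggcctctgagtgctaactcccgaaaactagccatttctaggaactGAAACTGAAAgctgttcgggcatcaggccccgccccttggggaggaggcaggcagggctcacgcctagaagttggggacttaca
Isg15, chr4:156200769-156201068, minus strand: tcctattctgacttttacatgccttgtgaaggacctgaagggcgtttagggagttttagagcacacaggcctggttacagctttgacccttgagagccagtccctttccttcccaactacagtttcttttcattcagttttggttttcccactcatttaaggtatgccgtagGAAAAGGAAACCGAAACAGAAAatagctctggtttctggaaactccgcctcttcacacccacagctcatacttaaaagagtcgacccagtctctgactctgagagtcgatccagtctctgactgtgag
Irf1, chr11:53769764-53770063, plus strand: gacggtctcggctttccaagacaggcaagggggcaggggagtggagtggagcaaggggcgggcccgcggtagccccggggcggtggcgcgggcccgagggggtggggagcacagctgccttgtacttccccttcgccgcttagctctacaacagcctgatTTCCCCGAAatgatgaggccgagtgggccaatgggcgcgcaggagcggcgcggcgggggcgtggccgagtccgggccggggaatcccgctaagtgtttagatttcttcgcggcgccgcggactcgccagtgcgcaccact

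In Ifitm3 both cores began after the start, by 2 and 19 bases, whereas those of Isg15 began 78, 72 and 66 bases before it and that of Igtp 34 bases before it. Ifit1 and Ifit3, in the Ifit cluster on chromosome 19, each held a pair of cores that read TTTCACTTTC and then TTTCAGTTTC, shown here with 10 bases on either side because the cores of both genes have the same letters while their control levels, given below, differ.
Ifit1, 104 bases before the start: caggcttcagTTTCACTTTCcagtctcagt
Ifit1, 85 bases before the start: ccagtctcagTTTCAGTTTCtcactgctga
Ifit3, 156 bases before the start: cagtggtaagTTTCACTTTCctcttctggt
Ifit3, 122 bases before the start: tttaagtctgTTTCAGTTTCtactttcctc

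Levels of the 35 genes ran from 0 to 3764 CPM. Ifitm3 ranked 26 among 14071 genes with a count, by mean control CPM, Irf1 219, Irf2 416 and Ifitm2 515. Mx1 had no count in any library. The sum over all 35 was 6279, 5696, 5187 and 4885 CPM in control libraries 1 to 4 and 6723, 6694, 8101 and 5401 CPM in hypoxic Sox17-deleted libraries 1 to 4, and Ifitm3 alone gave 42.6% ± 4.35 and 40.3% ± 5.33 of it (SD, n = 4). The groups overlapped for this sum. Without Ifitm3 the other 34 genes summed to 2774 to 3363 CPM in controls. In the hypoxic Sox17-deleted libraries these 34 summed to 3365 to 4395 CPM, just above the controls. With TMM scaling the groups overlapped for the 34 as well, and neither sum was tested. Of the 35, 18 averaged 50 CPM or more over the 8 libraries, and 15 had more than 3 counts in all 8. Values of 3 counts or fewer made up 20 of 140 gene and library pairs in the controls and 37 of 140 in the hypoxic Sox17-deleted group, which also had fewer genes detected.

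**Figure D1:**
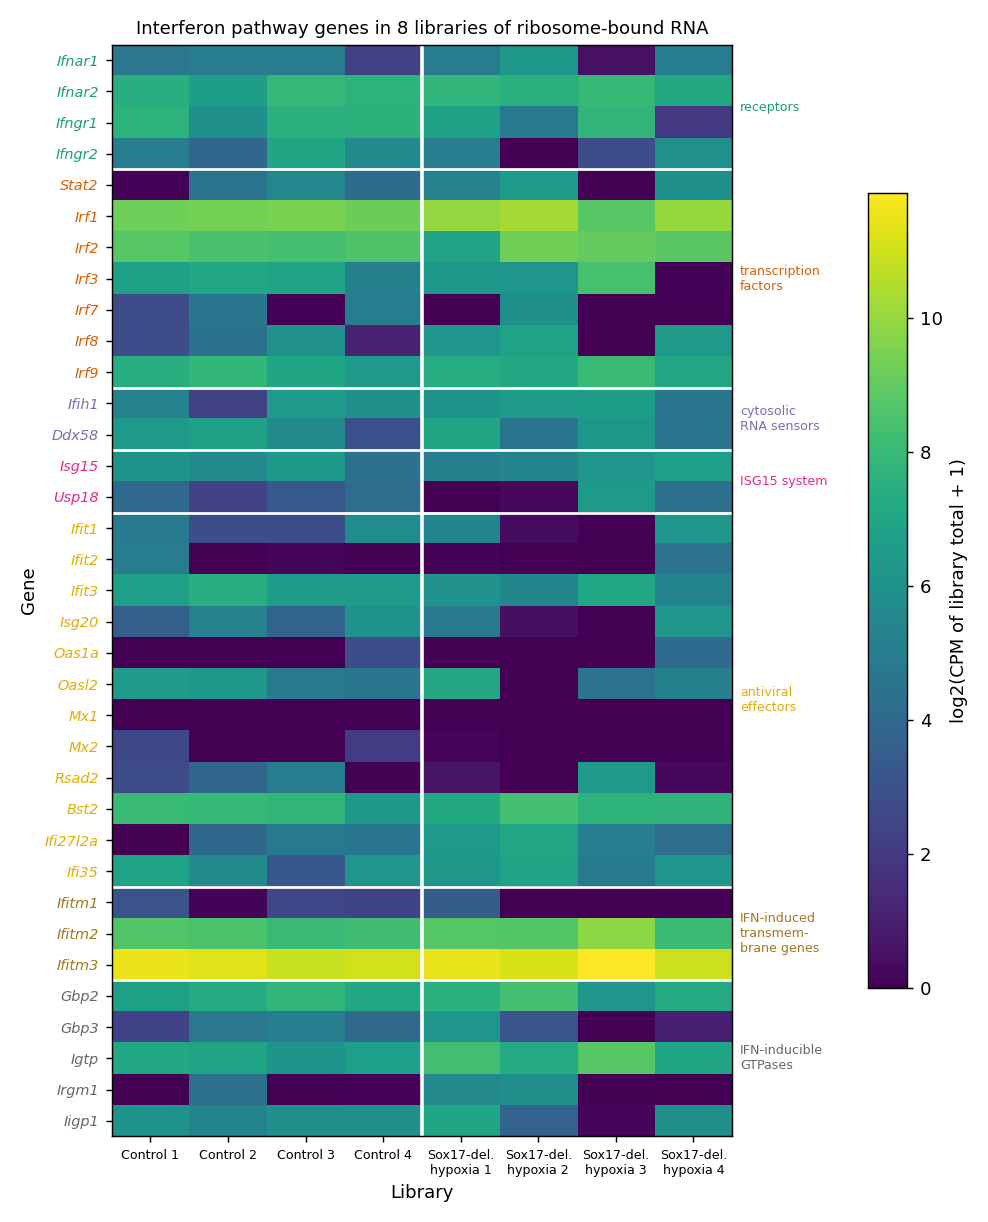
Level of each of the 35 genes (rows, grouped by role) in each of the 8 libraries (columns), as log2(CPM of library total + 1) on a colour scale. Ifitm3 is the brightest row in all 8 libraries, Irf1, Irf2 and Ifitm2 follow, Mx1 is at 0 throughout, and dark cells are more frequent on the right, where 37 of 140 values are at 3 counts or fewer.

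The comparison asks which transcripts differ in the endothelial pulldown after Sox17 deletion combined with hypoxia. None of the 30 interferon genes that passed the expression filter was called by edgeR's quasi-likelihood test at a Benjamini-Hochberg adjusted p under 0.05, and none of all 8282 genes tested was (0%). At an unadjusted p under 0.05 edgeR found 1 of the 30, Igtp, and 424 of all genes (5.12%). DESeq2 called 469 of 9873 genes (4.75%) and limma-voom 44 of 8282 (0.531%), in each case with 0 interferon genes among them. At an unadjusted p under 0.05 DESeq2 had Igtp alone of the 32 it tested, and limma-voom had Ifngr1 alone of 30. EdgeR without the low-count filter called 17 of 14071 genes (0.121%) and with robust estimation 1 of 8282 (0.0121%), again with 0 interferon genes. The control and hypoxic Sox17-deleted libraries overlapped for all 30, where 6.59% of all tested genes did not overlap. Of the 30, 22 had a log2 fold change (Sox17-deleted hypoxia minus control) above 0, with a median of 0.22, against 49.6% of all tested genes with a median of −0.0088. With limma-voom it was 16 of 30, with a median of 0.12. Of all 8282 genes, 2650 were above 0 with limma-voom (median −0.71) and 4110 with edgeR. The count above 0 thus depended on the model, for the interferon genes and over all genes. No alternative setting called an interferon gene. Intervals were wide: the 95% interval of the log2 fold change spanned −0.44 to 0.94 for Ifitm3, the most abundant, and −5.75 to 5.52 for Irf7, so large changes of the rarer genes were not detectable in these libraries.

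**Figure D2:**
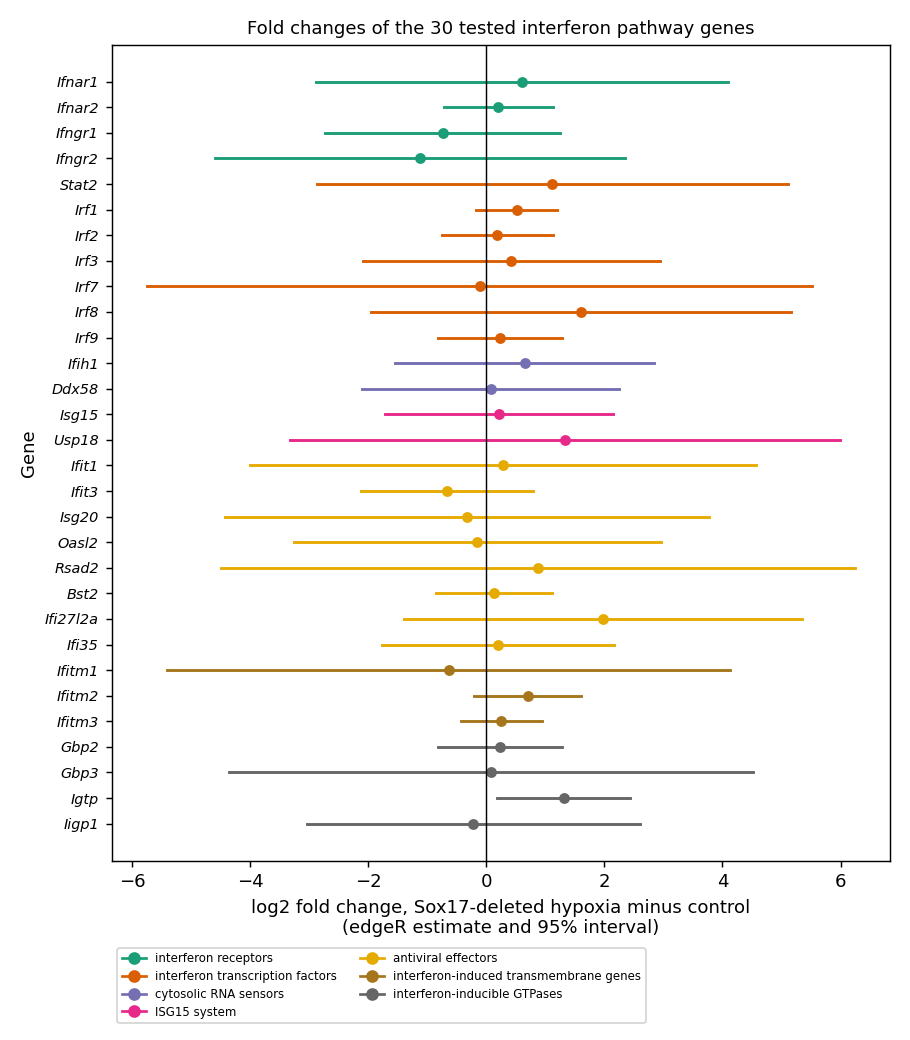
Log2 fold change (Sox17-deleted hypoxia minus control, x axis) of the 30 tested genes (rows, coloured by role), with the edgeR estimate as a point and its 95% interval as a bar. Every interval crosses 0 except that of Igtp, which runs from 0.18 to 2.44 before adjustment for multiple tests, and the narrowest belong to Ifitm3, Irf1, Ifitm2, Ifnar2 and Irf2.

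Among the receptors, the signalling chain gene Ifnar2 (chromosome 16, 91372783 to 91405589, plus strand, GRCm38) had the highest mean. It stood at 178, 98.3, 241 and 207 CPM in control libraries 1 to 4 and 226, 188, 246 and 149 CPM in hypoxic Sox17-deleted libraries 1 to 4. The groups covered much the same range, with a log2 fold change of 0.20 (95% interval −0.73 to 1.13). Ifnar1, its partner in the type I receptor and a neighbour on chromosome 16, was lower on the tag scale, at 25.1, 31.3, 30.2 and 4.12 CPM in controls and 31.8, 79.2, 0.429 and 31.2 CPM in the hypoxic Sox17-deleted libraries. The last 500 bases of its longest transcript share 6.43% of their 50-base stretches with other genes.

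Ifngr1, the ligand-binding chain for interferon gamma (chromosome 10, 19591949 to 19610229, plus strand), was at 204, 62.3, 191 and 197 CPM in the controls. In hypoxic Sox17-deleted libraries 1 to 4 it was at 109, 26.9, 223 and 3.05 CPM. Control library 2 and hypoxic Sox17-deleted libraries 2 and 4 were low, library 3 was the highest of all, and the log2 fold change of −0.74 had a 95% interval of −2.73 to 1.24. Limma-voom gave −2.29, with an unadjusted p of 0.0363 and an adjusted p of 0.342. The accessory chain gene Ifngr2 ranged from 15.4 to 128 CPM in controls and from 0 to 64.4 CPM in the hypoxic Sox17-deleted group. The 4 receptors summed to 424 ± 159 and 354 ± 103 CPM (SD, n = 4), and 2 of the 4 had a fold change above 0.

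Of the transcription factors, Irf1, which is induced by interferon gamma and activates many targets (chromosome 11, 53770014 to 53778374, plus strand), was the most abundant. It was at 607, 663, 707 and 601 CPM in the controls and 996, 1247, 442 and 1019 CPM in hypoxic Sox17-deleted libraries 1 to 4. Of the hypoxic Sox17-deleted libraries, 3 of 4 lay above every control and library 3 lay below every control. The log2 fold change was 0.52 (SE 0.32, edgeR adjusted p = 1.00). Without hypoxic Sox17-deleted library 3 it was 0.72, with an unadjusted edgeR p of 0.00838 and an adjusted p of 0.403. The groups then no longer overlapped, which was fixed by leaving out the only library of that group below the controls. In that setting 823 of 9127 genes had an unadjusted edgeR p under 0.05, and 11.3% of all tested genes did not overlap.

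Irf2, a related factor that competes with IRF1 for its sites (chromosome 8, 46739732 to 46847458, plus strand), had a different low library. Controls stood at 449, 358, 334 and 394 CPM, and hypoxic Sox17-deleted libraries at 119.8, 631, 519 and 459.7 CPM. Here library 1 was below every control and the other 3 were above every control, with a log2 fold change of 0.19 that was 0.52 without library 1 (edgeR adjusted p = 0.735). Its promoter holds an ISRE core 241 bases before the start.

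Irf9, the DNA-binding partner of STAT2 in the type I response, varied over a similar range in both groups. Its values were 175, 230.0, 124 and 85.4 CPM in controls and 163, 143, 260.4 and 138 CPM in hypoxic Sox17-deleted libraries. Irf3, a constitutive factor activated by viral sensing, was at 105, 133, 120.2 and 36.3 CPM in controls. In the hypoxic Sox17-deleted group it was at 80.0, 75.7, 337 and 0.0896 CPM, that is 2359 counts in library 3 and 1 count in library 4, and without library 3 its log2 fold change of 0.43 became −0.95.

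The other 3 factors were under 50 CPM on average and had libraries at or near 0. Stat2, the type I transducer, had 1, 250, 532 and 204 counts in controls and 485, 847, 0 and 683 counts in hypoxic Sox17-deleted libraries. Irf8, a factor best known from myeloid cells, had 64, 225, 733 and 15 counts in controls and 922, 1120, 0 and 962 counts in the hypoxic Sox17-deleted group. Macrophage, monocyte and neutrophil markers summed to 771, 605, 329 and 409 CPM in hypoxic Sox17-deleted libraries 1 to 4. In library 1 most of the sum came from S100a8, Ly6c2 and S100a9 (3186, 2770 and 2137 counts), while Csf1r and Cd68 had 1 and 0. In library 3 Csf1r and Cd68 had 527 and 569 counts and S100a8 had 0. The markers summed to 286 to 341 CPM in controls, where Irf8 ran from 1.26 to 63.0 CPM. The part of these markers' cells in the Irf8 values was not tested. For Irf8 without hypoxic Sox17-deleted library 3 the groups did not overlap, and in that setting neither did 11.3% of all tested genes. The separation was fixed by leaving out the only library of that group not above every control. Irf7, the factor that amplifies the type I response, had 62, 270, 1 and 365 counts in controls, and only library 2 of the hypoxic Sox17-deleted group had any (565 counts). The 7 factors summed to 1348, 1450.5, 1394 and 1166 CPM in controls and 1468, 2365, 1559 and 1764 CPM in hypoxic Sox17-deleted libraries, where Irf1 and Irf2 give most of the sum. The lowest hypoxic Sox17-deleted sum lay just above the highest control sum, and this sum was not tested.

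Both cytosolic sensors of viral RNA were detected in every library. Ifih1, which encodes the long RNA sensor MDA5, was at 38.2, 4.16, 83.0 and 61.9 CPM in controls and 67.4, 91.8, 98.7 and 23.7 CPM in hypoxic Sox17-deleted libraries. Ddx58, which encodes RIG-I, was at 82.5, 111, 51.2 and 6.48 CPM in controls and 129, 24.7, 80.6 and 22.8 CPM in the hypoxic Sox17-deleted group. The low libraries differed between these sensors, control 2 for Ifih1 and control 4 for Ddx58. Log2 fold changes were 0.65 and 0.07, and the latter was −0.021 with upper-quartile scaling.

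Isg15, a ubiquitin-like modifier and a standard readout of type I signalling, was at 71.0, 48.5, 80.4 and 21.5 CPM in controls. It was at 34.9, 41.5, 72.9 and 103 CPM in the hypoxic Sox17-deleted libraries, which lay around the controls (log2 fold change 0.22, 95% interval −1.71 to 2.14). Usp18, the protease that removes ISG15 and restrains the type I receptor, had 168, 44, 110 and 214 counts in controls and 0, 2, 623 and 220 counts in the hypoxic Sox17-deleted group. Its log2 fold change of 1.33 was −0.88 without hypoxic Sox17-deleted library 3.

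Antiviral effectors were led by Bst2 (chromosome 8, 71534255 to 71537456, minus strand), whose product tetherin holds budding virions at the cell surface. It was at 260.2, 248, 221 and 80.6 CPM in controls and 149, 325, 206 and 208 CPM in hypoxic Sox17-deleted libraries. Control 4 was the lowest of the 8, the other 7 overlapped, and the log2 fold change was 0.14 (95% interval −0.84 to 1.12). Ifit3, of the family that binds viral RNA, was at 104, 171, 94.0 and 93.1 CPM in controls and 63.1, 42.2, 134 and 39.9 CPM in the hypoxic Sox17-deleted group. There 3 of 4 lay below every control and library 3 above 3 of the controls, with a log2 fold change of −0.66 (95% interval −2.13 to 0.80). Without library 3 the groups did not overlap, and in that setting neither did 11.3% of all tested genes. The separation was fixed by leaving out the only library of that group not below every control. Its 3′ end shares 14.9% of 50-base stretches with Ifit3b.

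The neighbouring Ifit1 and Ifit2 were lower than Ifit3 on the tag scale in every control library, while Ifit1 was above it in hypoxic Sox17-deleted library 4. Ifit1, with the same ISRE core letters as Ifit3, had 307, 66, 69 and 631 counts in controls and 545, 3, 0 and 824 counts in the hypoxic Sox17-deleted libraries. Ifit2 had 325 counts in control 1 and 243 in hypoxic Sox17-deleted library 4, and at most 2 in each of the other libraries. Oasl2, of the oligoadenylate synthetase family, was at 90.7, 79.2, 28.2 and 24.5 CPM in controls and 141, 0, 22.3 and 35.8 CPM in hypoxic Sox17-deleted libraries. Oas1a had counts only in control 4 (72) and in hypoxic Sox17-deleted library 4 (185). These cannot be set apart from its neighbour Oas1g, which had 72 and 176 counts in the same libraries and shares 56.1% of the 50-base stretches.

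Ifi35, a partner of other interferon-induced proteins, was at 119, 50.3, 8.42 and 72.9 CPM in controls and 77.5, 113, 28.7 and 75.5 CPM in hypoxic Sox17-deleted libraries. Ifi27l2a had the highest log2 fold change of the tested members, 1.98, with a 95% interval of −1.39 to 5.35. Its values were 0, 15.2, 29.3 and 23.8 CPM in controls and 81.3, 134, 32.9 and 18.0 CPM in the hypoxic Sox17-deleted group, so library 4 overlapped the controls. Without that library, the only one of its group not above every control, the groups could not overlap. In that setting 11.8% of all tested genes did not overlap either. The exonuclease gene Isg20 ranged from 10.98 to 64.8 CPM in controls and from 0 to 74.6 CPM in hypoxic Sox17-deleted libraries. Rsad2, the gene of viperin, reached 576 counts in hypoxic Sox17-deleted library 3 and at most 7 in the other 3 of that group, against 58, 154, 372 and 0 in controls. Mx2, a polymorphic pseudogene in the gene annotation used, had 53 and 39 counts in controls 1 and 4 and at most 2 in any other library. Mx1 was at 0 in all 8. By counting error alone that allows up to 3 counts, or 0.429 CPM in the shallowest library. Libraries differed by more than counting error, as Stat2 had 0 counts in hypoxic Sox17-deleted library 3 and 847 in library 2. The 0 of Mx1 therefore sets no firm upper limit. The 12 effectors together summed to 533 ± 123 and 567 ± 45.9 CPM (SD, n = 4).

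The interferon-induced transmembrane genes lie side by side on chromosome 7 and encode proteins that block virus entry at membranes. Ifitm3 (141009586 to 141010770, minus strand) was at 2916, 2523, 1886 and 2111 CPM in controls and 2859.8, 2299, 3764 and 2036 CPM in hypoxic Sox17-deleted libraries 1 to 4. Library 3 was above all controls and the other 3 were within their range. The log2 fold change was 0.25 (SE 0.32, edgeR adjusted p = 1.00), and −0.0089 without library 3. Ifitm2 (140954837 to 140955987, minus strand) was at 396, 362, 262 and 299 CPM in controls and 428, 415, 935 and 282 CPM in the hypoxic Sox17-deleted group. Again library 3 was the highest, here by more than the spread of the other 7, and library 4 lay among the controls. The log2 fold change of 0.70 (SE 0.42) was 0.15 without library 3. Ifitm1 had at most 76 counts in any control and 134, 0, 0 and 0 counts in the hypoxic Sox17-deleted libraries. Shared sequence adds doubt to these levels, as 41.9% of the 50-base stretches at the 3′ end of Ifitm2, 14% of Ifitm3 and 11.8% of Ifitm1 occur in other transcripts. The genes sharing stretches with Ifitm3 include Ifitm2, and those sharing with Ifitm1 include Ifitm3.

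Some interferon-inducible GTPases attack the vacuoles of intracellular pathogens, and the family responds mainly to interferon gamma. Igtp, also called Irgm3 (chromosome 11, 58199556 to 58207591, plus strand), was at 135, 122, 70.6 and 105 CPM in controls. In hypoxic Sox17-deleted libraries 1 to 4 it was at 311, 151, 446 and 124 CPM. Libraries 1 to 3 lay above every control and library 4 lay between controls 1 and 2. This gave a log2 fold change of 1.31 (SE 0.52), an unadjusted edgeR p of 0.0257 and an adjusted p of 0.764. Its adjusted p was between 0.142 and 1.00 in the alternative settings, and limma-voom gave an unadjusted p of 0.0666. Without hypoxic Sox17-deleted library 3 the log2 fold change was 0.83 (edgeR adjusted p = 0.839), and without library 4 it was 1.56 (edgeR adjusted p = 0.398). The groups did not overlap without library 4, the only library of its group among the controls. In that setting 11.8% of all tested genes did not overlap.

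Gbp2, a guanylate-binding protein (chromosome 3, 142620602 to 142638008, plus strand), was at 106, 155, 228 and 134 CPM in controls and 189.8, 318, 74.4 and 154 CPM in hypoxic Sox17-deleted libraries. Library 2 was the highest and library 3 the lowest of all 8, the reverse of Igtp in library 3. Iigp1, an effector against Toxoplasma and Chlamydia, was at 64.6, 40.7, 61.9 and 61.3 CPM in controls and 125, 12.5, 0.143 and 58.6 CPM in the hypoxic Sox17-deleted group, a spread of 11.1 against 56.6 (SD, n = 4). Gbp3 had 45, 281, 382 and 194 counts in controls and 937, 74, 0 and 12 counts in the hypoxic Sox17-deleted libraries. Irgm1 had 217 counts in control 2, 603 and 556 in hypoxic Sox17-deleted libraries 1 and 2, and at most 1 elsewhere. The 5 GTPases summed to 309.8, 363, 393 and 317 CPM in controls and 745, 548, 521 and 337 CPM in hypoxic Sox17-deleted libraries, with library 4 among the controls.

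**Figure D3:**
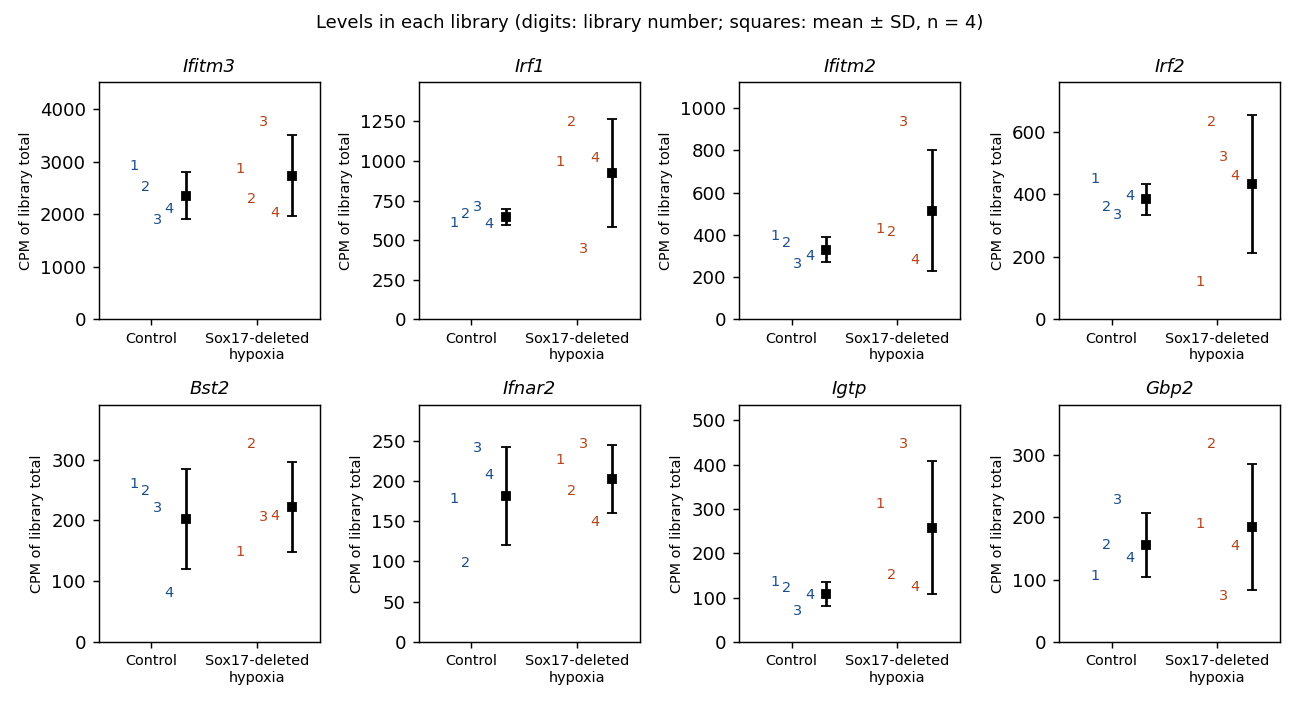
CPM of library total (y axes, from 0) for 8 abundant genes in control and hypoxic Sox17-deleted libraries, where each digit is a library number and squares with bars are the mean ± SD over 4 libraries. Hypoxic Sox17-deleted library 3 is the highest of 8 for Ifitm3 (3764), Ifitm2 (935) and Igtp (446) and the lowest for Irf1 (442) and Gbp2 (74.4).

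Libraries of a group did not move together across these genes. In hypoxic Sox17-deleted library 3, the shallowest, Ifnar2, Ifngr1, Irf3, Irf9, Ifih1, Usp18, Rsad2, Ifitm2, Ifitm3 and Igtp were at their highest of all 8 libraries. In the same library Ifnar1, Stat2, Irf1, Irf8, Ifit1, Isg20, Gbp2, Gbp3 and Iigp1 were at their lowest of the 8. Stat2, Irf8, Ifit1, Isg20 and Gbp3 were at 0 in that library alone. Irf7, Ifit2, Oas1a, Mx1, Mx2, Ifitm1 and Irgm1 were at 0 there and in at least 1 other library. That library had more than 3 counts for 21 of the 35 genes, against 25 to 31 in the others. For the 18 genes averaging 50 CPM or more, the median coefficient of variation was 37.2% among controls and 53.02% among hypoxic Sox17-deleted libraries. Over all 3705 genes at that level it was 35.8% and 63.5%. The wider spread in the hypoxic Sox17-deleted group was thus seen over all genes of that level too.

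Outside the 35 genes, 91 other genes of the pathway from lists of ligands, kinases, sensors and further targets were counted. Of these, 53 were tested, 0 were called by edgeR in either direction, and 2 had an unadjusted p under 0.05, with 22 fold changes above 0 and 31 below (median −0.18). All 11 interferon ligands listed, Ifnb1 and Ifng among them, were at 0 counts in all 8 libraries. For 6 of the 53 the groups were wholly apart, 1 higher (Gvin1) and 5 lower (Jak1, Jak2, Mavs, Parp12 and Eif2ak2), where 1.63% of all tested genes were wholly higher and 4.96% wholly lower.

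The receptor kinase gene Jak1, which serves both receptors, was at 745, 574, 683 and 636 CPM in controls and 498, 526, 269 and 410.5 CPM in hypoxic Sox17-deleted libraries (log2 fold change −0.63, SE 0.31, edgeR adjusted p = 1.00). Jak2, the partner kinase on the interferon gamma receptor, was at 39.9, 19.1, 46.6 and 44.8 CPM in controls and at 3.02, 0, 0 and 0 CPM in the hypoxic Sox17-deleted group. Its unadjusted edgeR p was 0.0485 and its adjusted p was 0.975. Eif2ak2, the gene of the RNA-activated kinase PKR, was at 16.9 to 28.6 CPM in controls and at most 2.29 CPM in hypoxic Sox17-deleted libraries, and the adaptor gene Mavs at 3.69 to 25.2 and at most 3.18 CPM. These low values stood in libraries with fewer genes detected, and the part of detection was not tested.

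Higher in level was the GPI-anchored target Ly6e, at 3895 ± 402 CPM in controls and 3307 ± 1507 CPM in hypoxic Sox17-deleted libraries (SD, n = 4), above Ifitm3. Gvin1, a very large inducible GTPase, was at 51.2, 25.3, 97.1 and 51.3 CPM in controls and 129, 215, 98.4 and 183 CPM in the hypoxic Sox17-deleted group. Library 3 was just above the highest control (log2 fold change 1.49, SE 0.62), with an unadjusted edgeR p of 0.0307 and an adjusted p of 0.825. Slfn5 was at 287 ± 74.7 and 425 ± 61.8 CPM, Irgm2 at 113 ± 46.2 and 199 ± 143 CPM, Ifi47 at 260.0 ± 123 and 203 ± 107 CPM and Ptpn11, a phosphatase of the pathway, at 110.5 ± 26.3 and 189 ± 196 CPM. Trim25, Dtx3l, Samhd1, Helz2 and Lgals3bp, the others with a mean of at least 100 CPM, had mean levels of 117 to 171 CPM in controls and 108 to 173 CPM in hypoxic Sox17-deleted libraries, and all had an edgeR adjusted p of 1.00.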

How the data were processed

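Ribosome-bound RNA was immunoprecipitated from lung of mice with tagged endothelial ribosomes and sequenced with a 3′ mRNA kit, per the labels' protocols. The authors deposited raw counts per gene symbol, 1 table per library. Bowtie2, bedtools and mm10 are named in the submitters' processing notes, and versions, strand, duplicates and multiple matches are not given in the sources used here. Rows with the same symbol (44 duplicates) were summed.

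Levels are CPM of library total. EdgeR 4.0.16 in R 4.3.3 (TMM factors, filterByExpr, group alone, quasi-likelihood test) was fitted to the whole table and p-values were adjusted by Benjamini-Hochberg, with a call at an adjusted p under 0.05. A standard error is the log2 fold change divided by the square root of F, and 95% intervals use it. Marker sums were compared by exact permutation. DESeq2 1.42.0, limma-voom (limma 3.58.1) and the other alternatives are in the closing section. Gene positions and 3′ ends are from GENCODE M21 (GRCm38, the assembly of mm10), which held all 35 members, and promoters are from RefSeq.

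Members and lists were chosen with earlier results of these data known. Values in every library are printed for members with a mean of at least 50 CPM, an unadjusted p under 0.05 or groups without overlap, and other pathway genes are named at a mean of at least 100 CPM or an unadjusted p under 0.05. Jak1, Mavs, Parp12, Eif2ak2, the ligands and low members with library counts were named after their values were seen where they fall outside that rule. Counting error alone is covered by the 3-count floor.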

Additional observations from a re-analysis of the deposited data

Results flagged for a closer look

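In 7 of 60 groups of 4 libraries (30 tested genes, each in controls and in hypoxic Sox17-deleted libraries), 1 library's gap to its nearest neighbour, as a share of the group's range, exceeded Dixon's critical value, which chance gives in about 1 in 20 groups. Among controls, library 2 stood apart each time. There Ifngr1 was low at 62.3 CPM, Iigp1 low at 40.7 CPM and Ifit3 high at 171 CPM. Among hypoxic Sox17-deleted libraries, library 1 was high for Gbp3 (72.6 CPM) and Ifitm1 (10.4 CPM), library 2 for Irf7 (59.8 CPM) and library 3 for Rsad2 (82.3 CPM). In these 4 cases the other 3 libraries lay at or near 0, at no more than 7.83 CPM.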

How the results depend on the processing

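None of 17 alternative settings called an interferon gene, and the lowest adjusted p of any was 0.142 (Igtp, DESeq2). The number of genes called over the whole table, 0 with edgeR, was 17 without a low-count filter, 1 with robust estimation, 469 with DESeq2 and 44 with limma-voom, and 0 to 5 with a library left out (5 without hypoxic Sox17-deleted library 1). The number of interferon genes without overlap between groups, 0 of 30, was 0 with TMM, RLE or upper-quartile scaling and 0 to 3 with a library left out. It was 3 of 30 without hypoxic Sox17-deleted library 3 (Irf1, Irf8, Ifit3), where 11.3% of all 8282 tested genes did not overlap. It was also 3 of 30 without library 4 (Igtp, Ifitm2, Ifi27l2a), where 11.8% of all tested genes did not overlap. In the fit with a replicate block 0 genes and 0 interferon genes were called. There 17 of 30 fold changes were above 0, with a median of 0.17, against 2836 of all 8282 genes, with a median of −0.57. The replicate numbers are not known to pair libraries, and deviations of same-numbered libraries correlated at −0.02 to 0.02 across genes.

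Of 506 log2 fold changes of single genes under an alternative, 48 had the other sign, in 18 genes, none of them called. The cause was not tested. With upper-quartile factors Ddx58 was at −0.021. With limma-voom Gbp3 was at −2.51, Ifit1 at −2.18, Irf2 at −0.15, Irf3 at −2.41, Rsad2 at −1.93 and Usp18 at −2.39. With a replicate block Gbp3 was at −2.85, Ifit1 at −2.27, Irf3 at −1.01, Rsad2 at −1.23 and Usp18 at −2.07. With a library left out the log2 fold change ran from −0.11 to 1.02 for Ifnar1, −0.95 to 0.85 for Irf3, −10.4 to 0.46 for Irf7, −0.093 to 0.51 for Irf9, −0.44 to 0.52 for Ddx58, −0.076 to 0.45 for Isg15, −0.88 to 1.82 for Usp18, −0.71 to 1.05 for Ifit1, −1.76 to 0.27 for Isg20, −1.46 to 0.27 for Oasl2, −5.63 to 1.82 for Rsad2, −0.13 to 0.31 for Bst2, −0.17 to 0.74 for Ifi35, −0.0089 to 0.42 for Ifitm3, −0.11 to 0.47 for Gbp2, −2.81 to 0.50 for Gbp3 and −1.31 to 0.20 for Iigp1. The other 12 tested genes had no sign change in any alternative. Genes under about 50 CPM often had libraries at 0 in a group beside libraries well above it, which widens their intervals.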

Other observations

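Among the other targets, the T cell chemokine gene Cxcl9 had 0, 1, 0 and 1 counts in controls and 323, 0, 617 and 0 counts in hypoxic Sox17-deleted libraries 1 to 4, and did not pass the expression filter. Gbp4 had 587, 498, 210 and 136 counts in controls and 2057, 463, 1016 and 778 counts in the hypoxic Sox17-deleted group, highest in library 1. Both were highest in hypoxic Sox17-deleted libraries 1 and 3, the libraries in which Igtp was also highest (311 and 446 CPM). Others of the 51 listed targets went either way in library 3. There Gbp9 was at its highest of all libraries (116 CPM), and Irgm2 (10.6 CPM) and Helz2 (0.429 CPM) were at their lowest. These genes were chosen after their values were seen, and no test was made.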
